A study of Mus musculus with 34 samples.

Results

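Transcripts of the receptors for serotonin, noradrenaline, dopamine and acetylcholine were followed in the cortex of mice aged 15 weeks that carried the R6/2 transgene, 1 targeted Hdac4 allele, both or neither. The receptor genes were taken from the platform annotation as every symbol beginning with Htr and a digit, Adra, Adrb, Drd, Chrm or Chrn. This gave 37 of 18193 measured genes, namely 13 serotonin, 2 adrenergic, 4 dopamine, 3 muscarinic and 15 nicotinic receptor genes. Receptor genes not found in this way were not analysed here. Each gene was represented by its probe set, the group of probes that reads 1 transcript, with the highest mean over all arrays. All levels are log2 expression values, so a change of 1 is a doubling or a halving of the signal.

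The 34 arrays, 1 per mouse, came from wild type mice (WT, n = 8), mice with 1 targeted and 1 intact Hdac4 allele (Hdac4HET, n = 8), mice with the R6/2 transgene and both Hdac4 alleles intact (R6/2, n = 9), and R6/2 mice with 1 targeted Hdac4 allele (Dble::R6/2, n = 9). All shared a mixed CBA and C57Bl/6 background. The R6/2 transgene expresses a mutant exon 1 fragment of human HTT from the HTT promoter in many tissues, and HDAC4 is a class IIa histone deacetylase. The targeted Hdac4 allele was carried in every cell throughout life and came from a 129S strain, so 129S DNA next to Hdac4 may have been inherited with it. The comparisons asked whether the transgene altered these genes, with and without the targeted allele, and whether the allele altered them, with and without the transgene.

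Monoamines and acetylcholine reach the cortex mainly through long axons of small brainstem and basal forebrain nuclei, and tune how cortical neurons respond to their fast inputs. Most of their receptors are coupled to G proteins, which raise or lower cyclic AMP or activate phospholipase C. The nicotinic receptors and the HTR3 serotonin receptors are instead ion channels, assembled from several subunits that open on binding the transmitter. Altered monoamine and muscarinic receptors are a long-known feature of Huntington's disease tissue and of its mouse models.

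Arrays were alike in overall scale, with medians between 5.44 and 5.52 and a correlation of 0.973 or above within a genotype. All 3 Hdac4 probe sets were called lower in the Hdac4HET arrays, the brightest at 71.5% of WT (adjusted p = 0.0036). In Dble::R6/2 the second brightest fell to 65.5% of R6/2 with no overlap between groups, but the brightest (79.4%, adjusted p = 0.691) and the dimmest (94.6%, adjusted p = 0.945) did not pass. Xist and the 3 measured Y-linked genes went against the gender label in 15 of 34 arrays (5 WT, 5 Hdac4HET, 1 R6/2 and 4 Dble::R6/2), so results are also given without these arrays where that matters. In addition, 4 arrays (WT replicates 2, 6 and 7, Hdac4HET replicate 1) held prolactin transcript above a log2 value of 8, and the mean of the epidermal markers was 6.73 in R6/2 replicate 2 against at most 5.30 in all others. The mean of the skeletal muscle markers was 6.47 in Hdac4HET replicate 7 against at most 4.91 in all others.

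Of the 37 genes, 15 had a WT mean of 5 or more and 22 were dimmer, and the mean over all arrays separated the same 15. Across the array as a whole, that level was reached by 56.2% of probe sets. The genes nearest to it were Htr1f with a WT mean of 5.41 on the upper side and Drd2 with 4.81 on the lower side. Levels of different probe sets are not comparable as transcript amounts, so the values below describe each gene against itself.

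Among the serotonin receptors, the brightest signals came from Htr2c, a Gq-coupled receptor, with a WT mean of 8.20 ± 0.24 (SD, n = 8), from Htr1a, a Gi-coupled receptor, with 6.85 ± 0.31, and from Htr5a with 6.17 ± 0.08. Htr7, Htr1b, Htr3a and Htr1f also lay at 5 or more. The muscarinic family was led by Chrm1, the main muscarinic receptor of cortical pyramidal neurons, at 9.62 ± 0.09 in WT. Chrm4 (4.35 ± 0.12) and Chrm3 (4.19 ± 0.32) fell into the dimmer class. Of the nicotinic genes, Chrna7, which forms channels of its own, read 8.03 ± 0.12, and Chrnb2 and Chrna4, the subunits of the common heteromeric brain receptor, read 6.76 ± 0.19 and 6.64 ± 0.08. Chrnd was the only other nicotinic gene at 5 or more, at 5.46 ± 0.09, although it encodes a subunit of the muscle receptor. Both adrenergic genes of the set, Adra2c (6.69 ± 0.17) and Adra1b (5.62 ± 0.19), were in the brighter class. Of the dopamine receptors, Drd1 read 7.34 ± 0.20, while Drd2, Drd4 and Drd3 were dimmer.

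**Figure D1:**
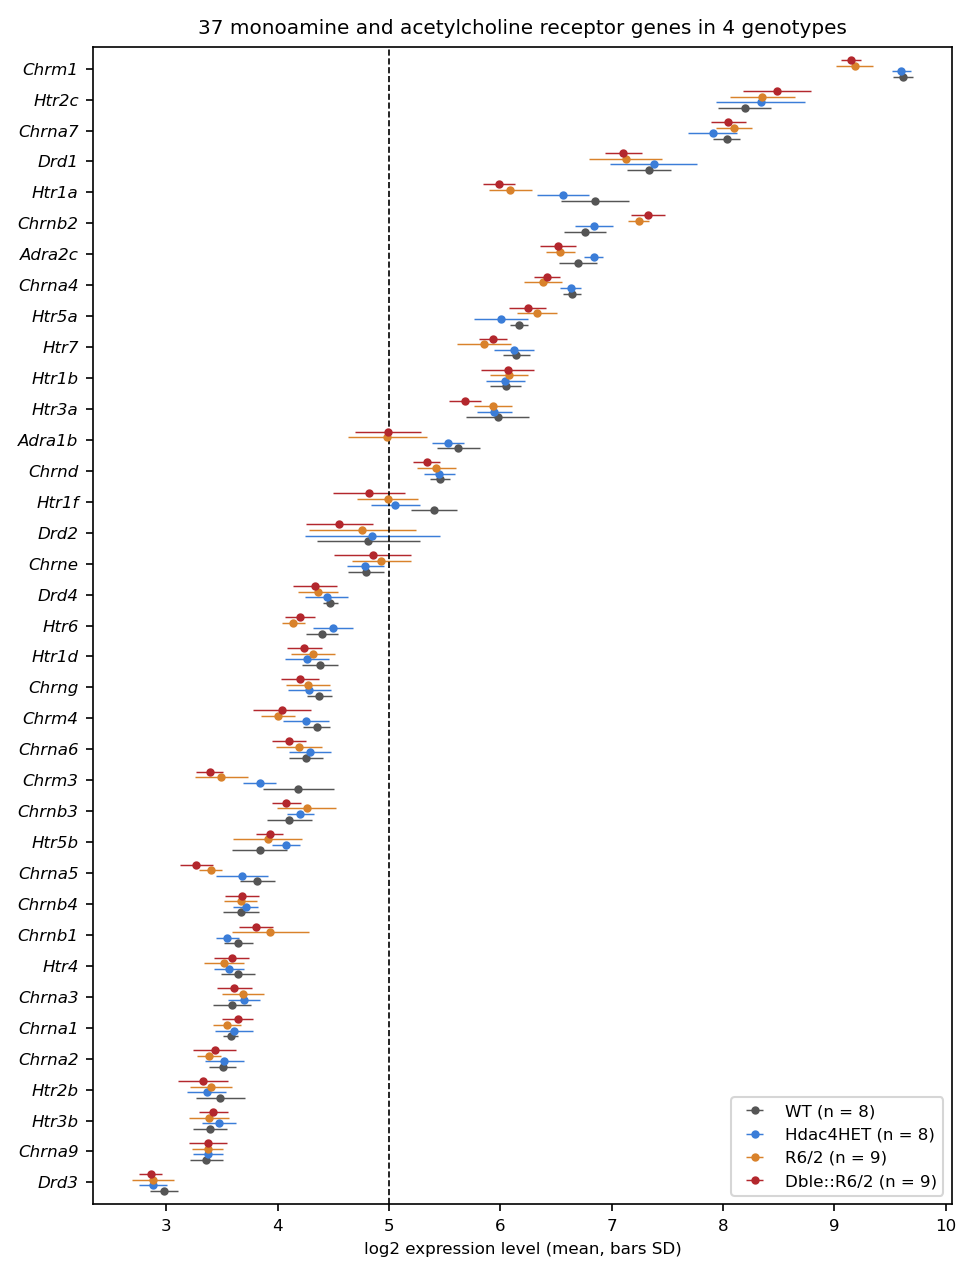
Mean log2 expression level of the 37 receptor genes in the 4 genotypes, with bars for the SD over mice and a dashed line at a level of 5. In 15 genes the WT mean reaches the line, and for Htr1a, Chrm3, Adra1b and Chrm1 both genotypes with the transgene have lower means than both genotypes without it, while Chrnb2 shows the opposite order.

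In R6/2 against WT, transcripts of 8 G protein-coupled receptors and of the nicotinic subunit Chrna5 fell, and that of the nicotinic subunit Chrnb2 rose. Chrna4 was also called lower, but its probe sets went in opposite directions. Of the 8, Htr1f, Htr7 and Chrm4 were not called in Dble::R6/2 against Hdac4HET, the other pair that differs by the transgene. In R6/2 against WT, 10 of 37 genes were lower and 1 was higher (limma, adjusted p of 0.05 or less over all 45037 probe sets), against a background of 12% of all probe sets lower and 14.9% higher. Among the 15 genes with a WT mean of 5 or more, 6 were lower and 1 was higher, where the background at that level was 18.1% lower and 21.9% higher. In the dimmer class 4 of 22 were lower (18.2%, background 4.23%) and 0 higher (background 5.91%), with 5 of the 22 at an unadjusted p under 0.05. The median change of the 37 genes was -0.06 on the log2 scale, and that of all probe sets was 0.01. By kind of receptor, 8 of 20 genes for G protein-coupled receptors were lower, while 2 of 17 ion channel subunits were lower and 1 was higher. In Dble::R6/2 against Hdac4HET the kinds were called alike, with 6 of 20 (30%) and 5 of 17 (29.4%). There, all 6 of the first kind were lower, and of the channel subunits 3 were lower and 2 higher. A difference between the kinds was not tested.

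The stretch before the transcription start is shown for the genes with the largest called changes that have a promoter entry, to set genes that fell beside the one that rose. The 250 bases before each start are from RefSeq (GRCm38.p6), read 5′ to 3′ on the gene's own strand, at chr13:105443443-105443692 (plus strand) for Htr1a, chr13:10360804-10361053 (minus) for Chrm3, chr11:43901238-43901487 (minus, the first of 2 starts) for Adra1b and chr3:89764633-89764882 (minus) for Chrnb2. Capitals mark motif letters found on either strand.
Htr1a: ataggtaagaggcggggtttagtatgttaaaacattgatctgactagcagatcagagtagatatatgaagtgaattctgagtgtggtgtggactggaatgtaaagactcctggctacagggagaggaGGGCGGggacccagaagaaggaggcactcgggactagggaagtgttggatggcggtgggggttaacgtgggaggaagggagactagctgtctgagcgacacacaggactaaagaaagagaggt
Chrm3: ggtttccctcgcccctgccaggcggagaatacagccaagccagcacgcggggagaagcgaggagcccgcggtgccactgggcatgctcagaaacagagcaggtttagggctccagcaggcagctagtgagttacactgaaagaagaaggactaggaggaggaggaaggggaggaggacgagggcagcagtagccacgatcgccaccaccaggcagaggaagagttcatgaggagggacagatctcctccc
Adra1b: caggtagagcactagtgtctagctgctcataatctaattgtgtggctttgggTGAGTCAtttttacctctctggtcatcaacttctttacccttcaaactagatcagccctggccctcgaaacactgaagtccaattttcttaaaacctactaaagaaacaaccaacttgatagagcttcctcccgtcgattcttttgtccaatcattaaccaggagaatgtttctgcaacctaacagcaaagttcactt
Chrnb2: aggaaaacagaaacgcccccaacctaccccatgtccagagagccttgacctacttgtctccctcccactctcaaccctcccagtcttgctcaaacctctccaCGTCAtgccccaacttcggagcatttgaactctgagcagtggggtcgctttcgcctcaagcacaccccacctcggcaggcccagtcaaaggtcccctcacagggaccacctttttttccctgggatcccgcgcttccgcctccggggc
The motifs searched were the cyclic AMP response element TGACGTCA and its core TGACG, which lies within the full element, the EGR motif GCGGGGGCG, the GC box GGGCGG, and the AP-1 motif TGANTCA. Htr1a held a GC box 123 bases before the start, Adra1b an AP-1 match at 198 bases and Chrnb2 a TGACG core, on the other strand, at 148 bases, while none of these letters were found in the Chrm3 stretch. The second Adra1b start, not shown, held 2 GC boxes and no AP-1 match in a window that also takes in the bases just past the start. In windows of 300 bases, reaching 50 bases past the start, 29 of the 37 genes matched an entry with 34 starts. The full response element was in 0 of the 34 against 1.79% of 32851 promoters, its core in 4 (11.8%) against 20.8%, the EGR motif in 1 (2.94%) against 2.91%, the GC box in 17 (50%) against 35.7%, and the AP-1 motif in 4 (11.8%) against 7.81%. Such matches describe letters, not binding.

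Htr1a, the inhibitory serotonin receptor found on cortical pyramidal cells as well as on serotonergic neurons, had the largest fall. It ranged from 6.47 to 7.47 in WT (median 6.82), from 6.28 to 6.89 in Hdac4HET (median 6.52), from 5.67 to 6.24 in R6/2 (median 6.22) and from 5.83 to 6.21 in Dble::R6/2 (median 5.97). Every R6/2 mouse lay below every WT mouse, and every Dble::R6/2 mouse lay below every Hdac4HET mouse. The change was -0.76 ± 0.115 (SE, adjusted p = 6.42e-05) in R6/2 against WT, or 59.1% of the WT level. Its second, much dimmer probe set moved the same way, by -0.37 ± 0.10 (SE, adjusted p = 0.00801). In the other pair that probe set differed less, at 3.79 ± 0.12 in Hdac4HET and 3.67 ± 0.14 in Dble::R6/2 (SD).

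All 3 muscarinic genes of the set studied here fell in R6/2. Chrm1, which signals through Gq and phospholipase C, lay between 9.51 and 9.75 in WT (median 9.58), 9.49 and 9.78 in Hdac4HET (median 9.58), 8.88 and 9.45 in R6/2 (median 9.20), and 9.02 and 9.31 in Dble::R6/2 (median 9.17). The mice with the transgene did not overlap with those without it, and the fall of 0.43 ± 0.07 (SE, adjusted p = 1e-04) left 74.0% of the WT level. Its second probe set fell by 0.69 ± 0.13 (SE, adjusted p = 0.00041). In Dble::R6/2 against Hdac4HET that second probe set changed by -0.28 and was not called (adjusted p = 0.142). Chrm3, also Gq-coupled, ranged from 3.68 to 4.56 in WT (median 4.20), 3.69 to 4.08 in Hdac4HET (median 3.76), 3.05 to 3.94 in R6/2 (median 3.50) and 3.17 to 3.56 in Dble::R6/2 (median 3.40). Its WT and R6/2 mice overlapped, yet the change of -0.69 ± 0.13 (SE, adjusted p = 0.000382) was the second largest fall of the 37 genes. Chrm4, the Gi-coupled member, changed by -0.35 ± 0.07 (SE, adjusted p = 0.00104).

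Adra1b, a Gq-coupled receptor for noradrenaline, ranged from 5.34 to 5.92 in WT (median 5.64), 5.32 to 5.77 in Hdac4HET (median 5.54), 4.13 to 5.25 in R6/2 (median 5.09) and 4.56 to 5.36 in Dble::R6/2 (median 5.01). All R6/2 mice were below all WT mice, while the highest Dble::R6/2 value (5.36) passed the lowest Hdac4HET value (5.32). The change in R6/2 was -0.64 ± 0.13 (SE, adjusted p = 0.00109), and the lowest value was that of R6/2 replicate 2, the array with epidermal transcripts. Without that array the gene was still called. The Gi-coupled Adra2c read 6.69 ± 0.17 in WT and 6.54 ± 0.13 in R6/2, a change of -0.15 that did not pass (adjusted p = 0.14).

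Among the other serotonin receptors, Htr1f (Gi-coupled) ranged from 5.10 to 5.80 in WT (median 5.42), 4.78 to 5.48 in Hdac4HET (median 5.07), 4.63 to 5.41 in R6/2 (median 4.85) and 4.27 to 5.28 in Dble::R6/2 (median 4.80). The WT and R6/2 ranges overlapped, and the change was -0.42 ± 0.11 (SE, adjusted p = 0.00781). Its second probe set changed by -0.39 and was not called (adjusted p = 0.332). Htr7 and Htr6, which both raise cyclic AMP through Gs, changed by -0.29 ± 0.09 (adjusted p = 0.0255) and -0.26 ± 0.06 (adjusted p = 0.00534). The second Htr7 probe set changed by -0.18 and was not called (adjusted p = 0.0566). The Htr7 call was lost without WT replicate 2, without WT replicate 6, and without the replicates 3 of WT and R6/2, which were high in striatal markers. The calls of Htr1f, Htr7 and Chrna4 were lost without the 3 WT arrays high in prolactin, and again without the 6 arrays of this pair with a disputed gender label, which left 8 of the 11 calls each time. Calls over all probe sets dropped as well, to 8040 and 8159, where all arrays gave 5426 lower and 6701 higher. Htr2c, Htr5a, Htr1b and Htr3a, all at 5 or more, had changes between -0.04 and 0.16 that did not pass.

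**Figure D2:**
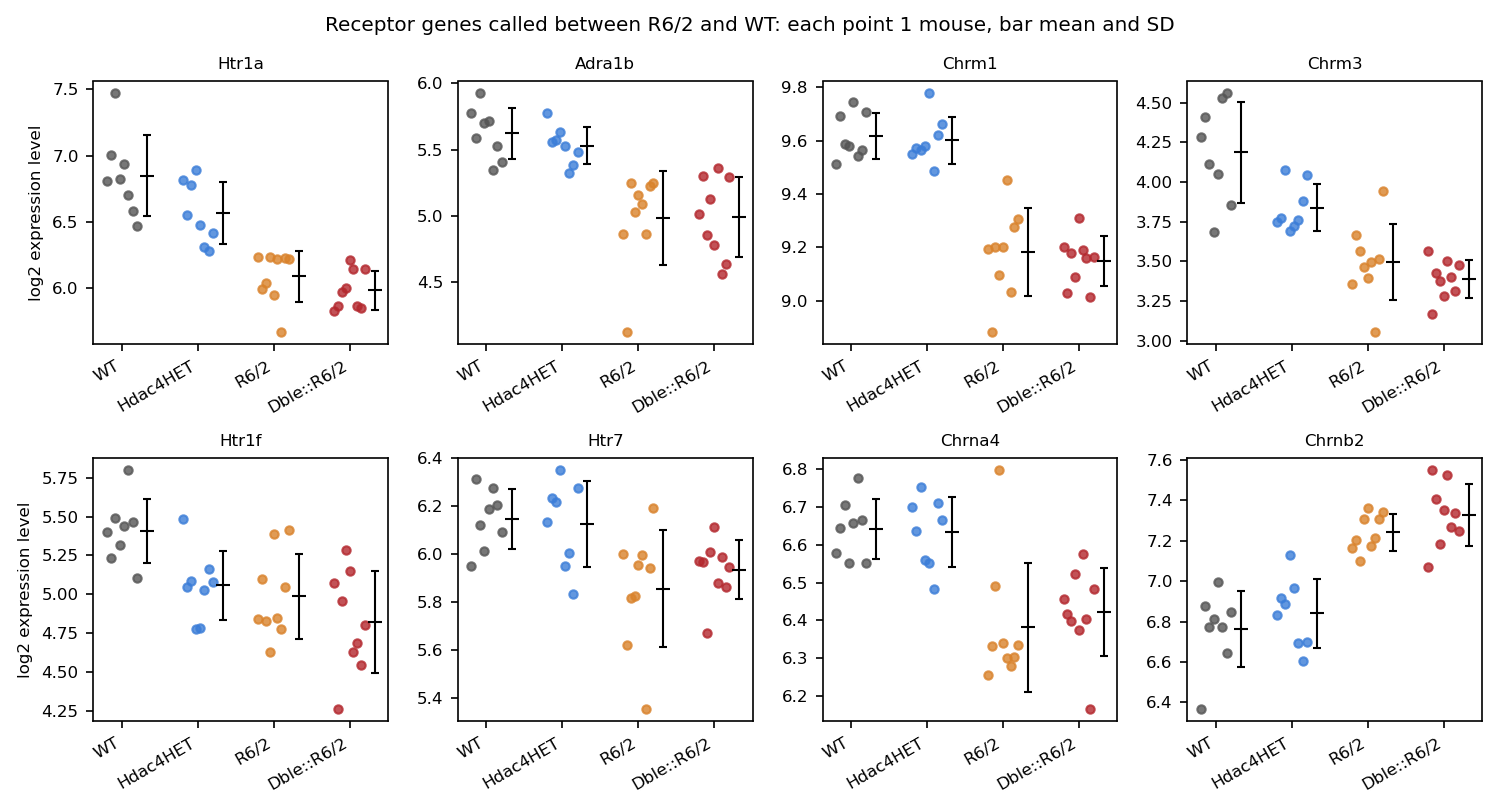
Log2 expression level of 8 receptor genes in each mouse of the 4 genotypes (points), beside the group mean and its SD (bars). Htr1a, Adra1b and Chrm1 of R6/2 lie wholly below WT, Chrnb2 lies wholly above WT, and the groups overlap for Chrm3, Htr1f, Htr7 and Chrna4.

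The nicotinic subunits moved in both directions. Chrnb2, the partner of Chrna4 in the most abundant heteromeric nicotinic receptor of the brain, was the only one of the 37 genes called higher in R6/2. It ranged from 6.37 to 6.99 in WT (median 6.79), 6.61 to 7.13 in Hdac4HET (median 6.86), 7.10 to 7.36 in R6/2 (median 7.21) and 7.07 to 7.55 in Dble::R6/2 (median 7.34). All R6/2 mice stood above all WT mice, and the rise of 0.48 ± 0.07 (SE, adjusted p = 5.96e-05) brought the level to 139.5% of WT. A second probe set of Chrnb2 rose by 0.68 ± 0.12 (SE, adjusted p = 0.000233), also without overlap, and its remaining probe set changed by 0.09 (adjusted p = 0.226).

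Chrna5, an accessory subunit that joins receptors of the Chrna4 and Chrnb2 type, ranged from 3.53 to 3.99 in WT (median 3.88), 3.44 to 4.10 in Hdac4HET (median 3.61), 3.25 to 3.51 in R6/2 (median 3.44) and 3.10 to 3.54 in Dble::R6/2 (median 3.27). Dim as it was, its R6/2 and WT mice did not overlap, and both of its probe sets fell, by 0.42 ± 0.07 (adjusted p = 0.000116) and 0.56 ± 0.08 (adjusted p = 4.51e-05). Chrna4 itself fell by 0.26 ± 0.07 (SE, adjusted p = 0.00786) on its brightest probe set. Its second probe set went the other way, up by 0.30 ± 0.09 (adjusted p = 0.0221), and the mean of its 3 probe sets changed by -0.03 (adjusted p = 0.719). The direction for Chrna4 thus depended on the probe set. Chrna7 read 8.03 ± 0.12 in WT and 8.10 ± 0.16 in R6/2 (95% interval of the change -0.08 to 0.22).

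The genes for subunits of the muscle receptor (Chrna1, Chrnb1, Chrnd, Chrne, Chrng) gave 0 calls in R6/2 against WT, with Chrnb1 closest at 0.29 ± 0.12 (SE, adjusted p = 0.0886). Chrna2, Chrna3, Chrna6, Chrna9, Chrnb3 and Chrnb4, subunits known mostly from other brain nuclei, ganglia and hair cells, were dim and also not called. All of these genes but Chrnd were in the dimmer class, where only 4.23% of all probe sets were lower and 5.91% higher.

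Dopamine receptors were the one family with 0 genes (of 4) called in any limma comparison, with 0 at an unadjusted p under 0.05 in R6/2 against WT or in Dble::R6/2 against Hdac4HET. Drd2, Drd3 and Drd4 were in the dimmer class, where 4.23% of all probe sets were lower and 5.91% higher in R6/2 against WT. In the class of Drd1 the shares were 18.1% and 21.9%, so 0 of 4 is not far from the background. Drd1, the Gs-coupled receptor that typifies 1 class of striatal projection neuron, ranged from 7.15 to 7.72 in WT (median 7.28), 6.81 to 8.17 in Hdac4HET (median 7.29), 6.79 to 7.81 in R6/2 (median 7.03) and 6.75 to 7.28 in Dble::R6/2 (median 7.17). The ranges overlapped, the change in R6/2 was -0.21 ± 0.125 (SE, adjusted p = 0.239), and its second probe set changed by 0.36 (adjusted p = 0.146). Drd2, the Gi-coupled receptor of the other class, varied the most of the dopamine receptors, from 4.34 to 5.71 in WT and from 4.25 to 5.89 in Hdac4HET. Its highest values, 5.89 in Hdac4HET replicate 3, 5.71 in WT replicate 3, 5.66 in Hdac4HET replicate 6 and 5.59 in R6/2 replicate 3, came from the same 4 arrays that were highest in the mean of 13 striatal projection neuron markers (6.91 to 7.03). Without the WT and R6/2 arrays among these, the Drd1 change in R6/2 against WT moved from -0.21 (adjusted p = 0.239) to -0.24 (adjusted p = 0.0723). That of Drd2 moved from -0.05 (adjusted p = 0.898) to -0.03 (adjusted p = 0.938). Without the Hdac4HET pair of these arrays, the Drd2 change in Dble::R6/2 against Hdac4HET moved from -0.30 (adjusted p = 0.364) to 0.01 (adjusted p = 0.966), and that of Drd1 from -0.27 (adjusted p = 0.156) to -0.12 (adjusted p = 0.49). A second, dimmer probe set of Drd4 was lower in that comparison of all arrays (-0.24, adjusted p = 0.0461).

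Probe sets of 1 gene did not always tell the same story, as the 37 genes had 66 probe sets and 21 genes had several. The clearest case was Htr1b, a Gi-coupled receptor that also sits on axon terminals, which was chosen for description after its values were seen. On its brightest probe set WT read 6.05 ± 0.14 and R6/2 6.08 ± 0.17 (change 0.03, adjusted p = 0.819). Its second probe set ranged from 5.71 to 6.48 in WT (median 6.07), 5.50 to 6.16 in Hdac4HET (median 5.97), 4.81 to 5.67 in R6/2 (median 5.25) and 4.67 to 5.16 in Dble::R6/2 (median 4.93). Mice with the transgene did not overlap with those without it, in either pair. The changes were -0.92 ± 0.13 (SE, adjusted p = 4.6e-05) in R6/2 and -0.95 ± 0.09 (SE, adjusted p = 4.35e-07) in Dble::R6/2 against Hdac4HET, both larger than any change on the probe sets chosen by brightness. Htr2c and Htr5a each had a second probe set that was called lower in R6/2 (-0.48, adjusted p = 0.00172, and -0.27, adjusted p = 0.0117), while their brightest ones were not called, but neither of these was called in Dble::R6/2 against Hdac4HET (adjusted p = 0.875 and 0.936). Which transcript forms these probe sets read was not examined.

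**Figure D3:**
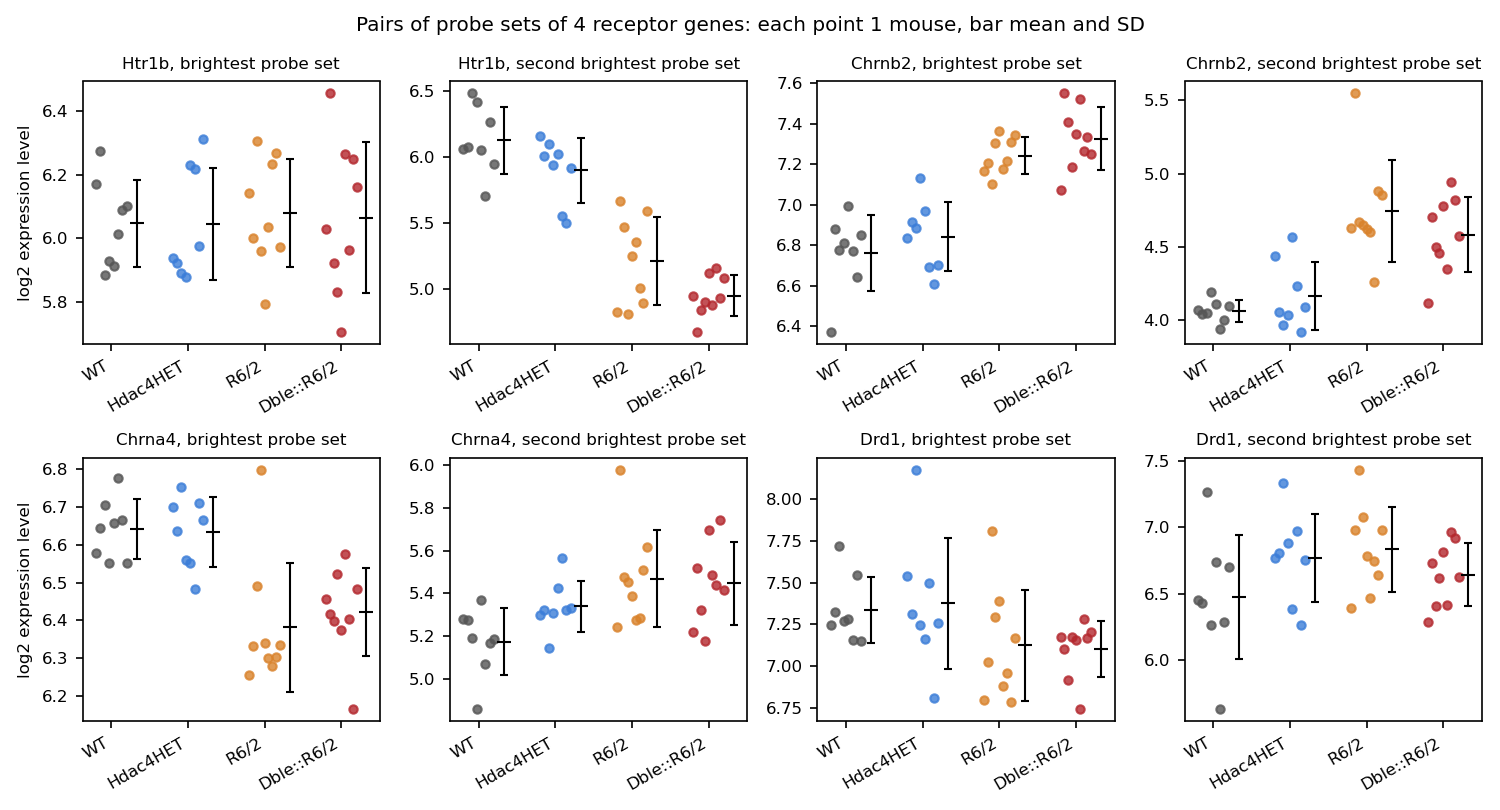
Log2 expression level in each mouse on the brightest and second brightest probe sets of Htr1b, Chrnb2, Chrna4 and Drd1 (points), beside the group mean and its SD (bars). Both Chrnb2 probe sets shown were higher with the transgene, Htr1b was lower on the second one only, and the Chrna4 probe sets moved in opposite directions.

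Dble::R6/2 against Hdac4HET repeats the transgene comparison in mice that all carried the targeted allele, on arrays that the R6/2 and WT pair did not use. Here 9 of 37 genes were lower and 2 were higher, against a background of 9.98% lower and 13.2% higher. Of the 15 brighter genes 6 were lower and 1 was higher, where the background at that level was 15.3% lower and 19.8% higher, and of the 22 dimmer genes 3 were lower (background 3.12%) and 1 was higher (background 4.6%). The median change was -0.11 for the 37 genes and 0.005 for all probe sets.

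Both pairs called 7 genes lower (Htr1a, Chrm1, Chrm3, Adra1b, Chrna5, Htr6 and Chrna4) and 1 gene, Chrnb2, higher. The Chrna4 call was lost in both pairs with the mean of its probe sets. Its second probe set changed by 0.11 (adjusted p = 0.398) in Dble::R6/2 against Hdac4HET. The 7 were 18.9% of the 37 genes, where 6.43% of all probe sets were lower in both pairs, and the 1 was 2.7%, where 9.47% were higher in both. The 8 shared calls were 72.7% of the calls in each pair, against 59% of all R6/2 calls and 68.7% of all Dble::R6/2 calls. Signs were the same for 31 of 37 genes (83.8%), against 71.1% of all probe sets, and for 15 of the 15 brighter ones, against 78.3% at that level. Opposite calls were found for 0 of the 37 genes and for 8 of all 45037 probe sets. In Dble::R6/2 the changes were -0.58 ± 0.09 for Htr1a, -0.54 ± 0.11 for Adra1b, -0.45 ± 0.05 for Chrm1 and 0.49 ± 0.08 for Chrnb2 (SE, adjusted p between 3.77e-06 and 0.000989).

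Htr1f, Htr7 and Chrm4 were called in R6/2 against WT alone, with changes in the other pair of -0.24, -0.19 and -0.22 (adjusted p = 0.214, 0.0751 and 0.177). Adra2c (-0.32 ± 0.07, adjusted p = 0.0016), Htr3a (-0.26 ± 0.07, adjusted p = 0.0125) and Chrnb1 (0.25 ± 0.07, adjusted p = 0.00836) were called in Dble::R6/2 against Hdac4HET alone. Htr3a encodes a cation channel of a class of cortical interneurons. These 6 genes are not shown to differ between the pairs, because the interaction test called 0 of the 37. Adra2c, Chrna4, Chrna5, Chrnb1 and Htr6 lost their call in this pair without the 9 arrays of these genotypes whose gender label is disputed. Calls over all probe sets dropped as well, to 3687 from 4496 lower and 5926 higher, so these losses are not particular to the 5 genes. Htr3a lost its call without the 3 Dble::R6/2 arrays that were highest in choroid plexus markers.

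**Figure D4:**
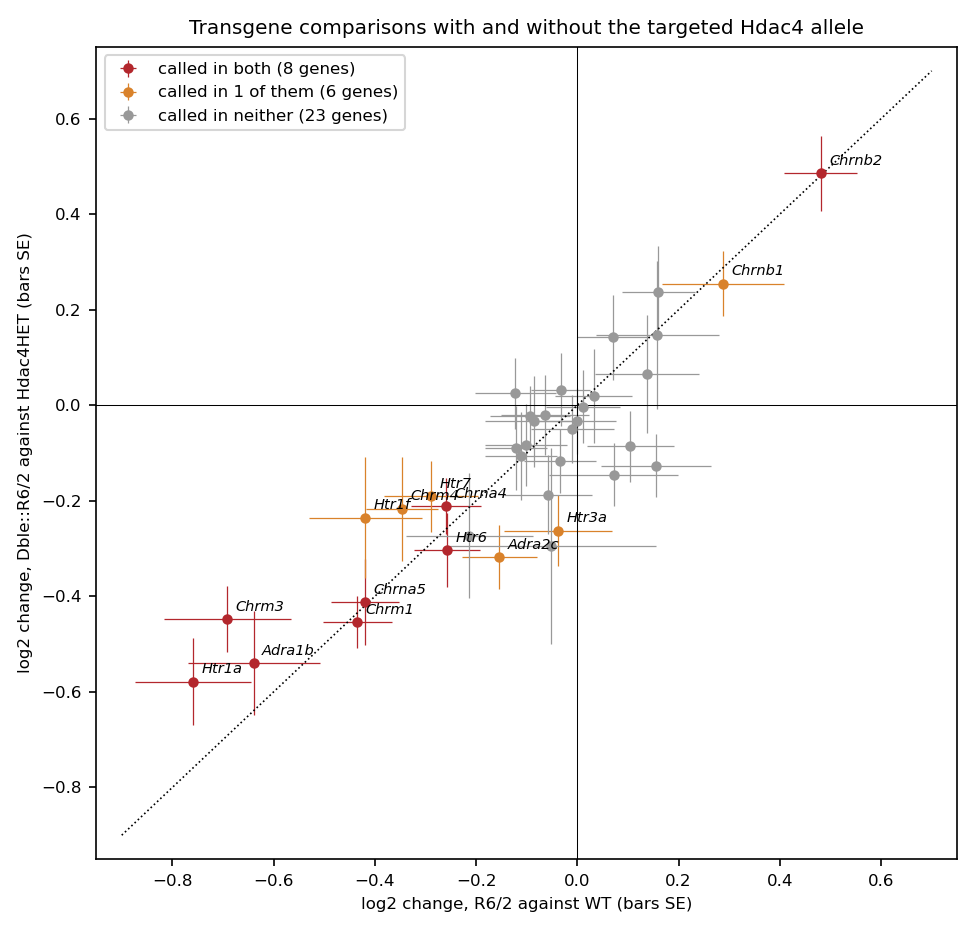
Log2 change of each of the 37 receptor genes in Dble::R6/2 against Hdac4HET plotted against the change in R6/2 against WT, with bars for the SE and a dotted line of equal change. The 8 genes called in both pairs have the same sign in both, with Chrnb2 alone at the upper right and Htr1a, Chrm3 and Adra1b at the lower left. Chrm3 and Htr1a fell less in Dble::R6/2 against Hdac4HET, a difference that the interaction test did not call.

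The targeted Hdac4 allele gave 0 calls among the 37 genes on either background. In Hdac4HET against WT limma called 0 of 37 at the adjusted threshold and 4 had an unadjusted p under 0.05 (background 3.91% of probe sets called), and the methods' t-test, run on the same values, also called 0 after Benjamini-Hochberg adjustment (background 0.384%). The 4 were Htr1f (-0.35, adjusted p = 0.0568), Chrm3 (-0.35, adjusted p = 0.0841), Htr5b (0.24, adjusted p = 0.149) and Htr1a (-0.28, adjusted p = 0.194). Both the count and its background rested on single arrays, since 3 genes (Htr1f, Chrm3 and Htr5b) were called without WT replicate 8 and 1 (Htr1f) without Hdac4HET replicate 1. The 1760 probe sets behind the background became 3994 without WT replicate 8, 183 without Hdac4HET replicate 6, 22 with the sex that Xist gives as a covariate and 5 without the arrays high in prolactin.

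On the R6/2 background, Dble::R6/2 against R6/2 gave 0 of 37 calls by limma and by the methods' t-test (backgrounds 0.00666% and 0.00888%), and 1 gene, Htr3a, had an unadjusted p under 0.05 with a change of -0.26 ± 0.07 (SE, adjusted p = 0.786). Changes lay between -0.26 and 0.13, and the 95% intervals of the 37 genes stayed within -0.57 and 0.40. For the genes that had moved most with the transgene, the level in Dble::R6/2 remained beside that of R6/2, with Htr1a at 5.99 ± 0.15 against 6.09 ± 0.19 and Chrnb2 at 7.33 ± 0.15 against 7.24 ± 0.09 (SD, n = 9 each). The interaction of transgene and allele was called for 0 of 37 genes (limma, background 0.00222%), with 1 at an unadjusted p under 0.05, and the lowest adjusted p was 0.465 for Chrnb3.

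**Figure D5:**
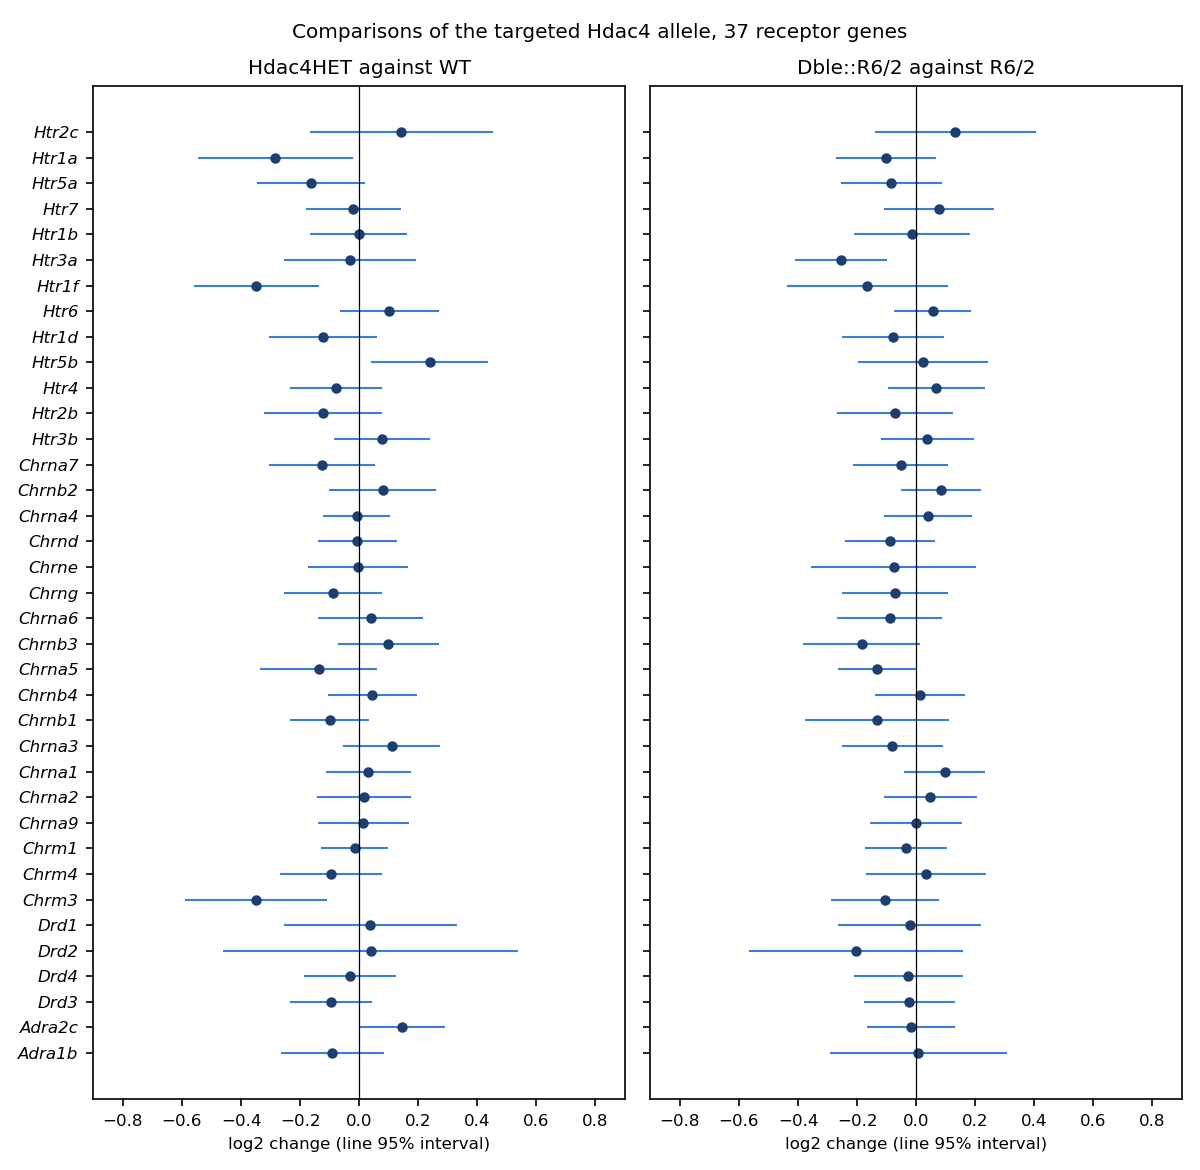
Log2 change with 95% interval of the 37 receptor genes in Hdac4HET against WT (left) and Dble::R6/2 against R6/2 (right), grouped by receptor family. None of the changes passed the adjusted threshold, and the intervals lie within -0.59 and 0.54 on the left and within -0.57 and 0.40 on the right.

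Beyond the receptors themselves, genes that act with them were counted in the same way. The background over all probe sets was 14.9% higher and 12% lower in R6/2 against WT. In Dble::R6/2 against Hdac4HET it was 13.2% higher and 9.98% lower. Of 21 measured genes that make and clear the transmitters, 2 were higher and 2 lower in R6/2. Ddc, the decarboxylase that completes dopamine and serotonin synthesis, rose by 1.07 ± 0.23 (SE, adjusted p = 0.0015), and Bche by 0.48 (adjusted p = 0.0498), while Slc18a2, the vesicular monoamine transporter, and Th, the first enzyme of dopamine synthesis, fell by 0.39 and 0.27. In Dble::R6/2 against Hdac4HET 4 were higher (Ddc by 1.33, with Bche, Tph2 and Maoa) and 0 lower. Of 5 histamine and trace amine receptors, 1 was called in R6/2, the histamine receptor Hrh3, which fell by 1.16 ± 0.12 (SE, adjusted p = 9.58e-07), a larger fall than on any of the 37 chosen receptor probe sets. In Dble::R6/2 against Hdac4HET 2 were lower, Hrh3 by 0.94 (adjusted p = 2.41e-07) and Hrh1 by 0.44 (adjusted p = 0.00195), and 1 was higher, Hrh2 by 0.25 (adjusted p = 0.0165).

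Downstream, 6 of 28 G protein and effector genes rose and 6 fell in R6/2. Among all probe sets with a WT mean of 5 or more, 21.9% were higher and 18.1% lower, so these counts are near the background. Plcb1, the phospholipase C that Gq-coupled receptors use in cortex, fell by 0.78 ± 0.05 and the adenylyl cyclase Adcy1 by 0.57 ± 0.06 (SE, adjusted p = 5.52e-09 and 2.78e-06), and both also fell in Dble::R6/2 against Hdac4HET (by 0.75 and 0.64). Gnai2, a Gi subunit, rose by 0.51 and by 0.28 in the same pairs. Of 16 receptor kinases, arrestins and accessory proteins, 5 rose and 5 fell. All 4 Ly6-type proteins of this list, some of which are known to modulate nicotinic receptors, were among the falls, with Lypd6 down by 0.79, Lynx1 by 0.67, Lypd1 by 0.53 and Lypd6b by 0.48. The same 4 fell in Dble::R6/2 against Hdac4HET, Lynx1 by 0.89 ± 0.09 (SE, adjusted p = 4.89e-07). Ric3, a chaperone of nicotinic receptors, rose by 0.41 (adjusted p = 0.0256) in R6/2.

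Markers of the cells that carry the receptors also moved, against a background in R6/2 of 12% of all probe sets lower and 14.9% higher. Among probe sets with a WT mean of 5 or more, 18.1% were lower and 21.9% higher. Of 6 cortical excitatory neuron markers 5 were lower in R6/2, and the mean of the list spanned 10.3 to 10.6 in WT, 10.4 to 10.6 in Hdac4HET, 10.02 to 10.22 in R6/2 and 9.98 to 10.1 in Dble::R6/2. Of 12 GABAergic interneuron markers 9 were lower, with the list mean between 9.15 and 9.28 in WT and between 8.46 and 8.72 in R6/2. Of 8 astrocyte markers 6 were lower and 1 (Gfap) was higher, of 8 microglia markers 5 were lower, of 7 oligodendrocyte markers 3 were lower, and of 8 endothelial and mural markers 2 were higher. Of 13 striatal projection neuron markers 4 were lower and 1 (Syndig1l) was higher in R6/2 against WT, and 8 were lower and 0 higher in Dble::R6/2 against Hdac4HET. Hdac4HET replicates 3 and 6 were among the 4 arrays with the highest mean of this list. The part of these shifts in the receptor results was not tested, and in whole tissue fewer cells of a type cannot be told apart from less RNA per cell. Choroid plexus markers, whose cells carry much Htr2c, were higher for 3 of 6 in R6/2, and their mean reached 6.53, 7.20 and 6.73 in Dble::R6/2 replicates 4, 8 and 9 against at most 5.90 in other arrays. Without those 3 arrays the Htr2c change in Dble::R6/2 against Hdac4HET moved from 0.15 (adjusted p = 0.587) to -0.005 (adjusted p = 0.991).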

How the data were processed

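The authors hybridised cortex RNA, 1 mouse per array, to Affymetrix arrays, with quality control on the RACE platform and removal of arrays of poor quality. In the deposited table each probe set has a log2 expression level. For background correction and normalization, the method was not given in the sources used.

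Genotypes came from the labels. Of 45037 probe sets, 34945 had 1 gene symbol, 932 several and 9160 none in the platform annotation, and 34741 were matched to RefSeq GRCm38.p6 names. Each pair of genotypes was fitted alone, without covariates, by the lmFit and eBayes functions of limma (version 3.58.1, R 4.3.3), and the interaction with all 4 genotypes. P-values were adjusted over every probe set after Benjamini and Hochberg, with calls at 0.05. Errors cover the spread between mice, and signal over background per probe set was not known. Scripts were tested on simulated data. The receptor genes, 16 other gene lists and the naming rule (all called genes, the 3 brightest of a family, up to 4 called genes of a list, and those nearest to the level of 5) were chosen with earlier results of these data known. Promoter motifs were searched on both strands. Figures used matplotlib 3.10.9.

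Alternatives were quantile normalization, brighter probe sets only, array weights, trend and robust eBayes, gender label or Xist as a covariate, a replicate block, a single fit, the methods' t-test, all probe sets of a gene, a change over 30%, each array left out, and the arrays high in prolactin left out. Leaving out the arrays with a disputed gender label, the 4 highest in striatal markers or the 3 highest in choroid plexus markers was added after the data were seen.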

Additional observations from a re-analysis of the deposited data

Results flagged for a closer look

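In 20 named receptor genes, 80 groups of mice were checked for a mouse that stood far from the others of its genotype, and 8 values were found, where chance gives about 1 group in 20. In R6/2, Adra1b was low in replicate 2 at 4.13 (next 4.86), Chrna4 was high in replicate 4 at 6.80 (next 6.49), and replicate 7 was low in both Htr1a at 5.67 (next 5.95) and Htr2c at 7.67 (next 8.24). In WT, Chrm4 was low in replicate 8 at 4.09 (next 4.30) and Chrna7 high in replicate 3 at 8.29 (next 8.07). In Dble::R6/2, Chrna4 was low in replicate 8 at 6.17 (next 6.38) and Htr5a low in replicate 2 at 5.87 (next 6.19). The calls of Adra1b, Chrna4, Chrm4 and Htr1a in R6/2 against WT held with each of these arrays left out.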

How the results depend on the processing

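For the genes called in the pairs with and without the transgene, 653 recomputed values kept their direction and call, 29 lost the call and 0 reversed. In R6/2 against WT, the 10 lower genes became 4 among brighter probe sets only, where 12 of the 37 genes were tested, and 6 with a change over 30%. The 1 higher gene became 2 in a single fit of all genotypes, and 1 to 2 with each array left out (Chrnb1 without R6/2 replicate 4, Htr5a without R6/2 replicate 8). In Dble::R6/2 against Hdac4HET, the 9 lower genes became 5 with a change over 30% and 5 without the arrays with a disputed gender label, and the 2 higher became 1 under each of these and among brighter probe sets. In Hdac4HET against WT, 0 became 1 (Htr1f) with quantile normalization or the gender label as a covariate, and 0 to 3 with each array left out. The cause was not tested. The number of genes at or above the level in WT was 25 for a level of 4 and 11 for a level of 6, against 15.

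Same-numbered mice did not vary together (correlations from -0.35 to 0.45, and 0 to 2 arrays per comparison closest to their own number), so the numbers are not taken as pairs. With the number as a replicate block, 10 lower and 1 higher gene were called in R6/2 against WT, and 7 lower and 2 higher in Dble::R6/2 against Hdac4HET, where Chrna4 (adjusted p = 0.0558) and Htr3a (0.0564) lost the call. Dim genes are the less certain ones, since background was not measured per probe set.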
